A study of Homo sapiens with 32 samples.

Results

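The genes lower and higher in RH4 cells treated with dCBP were described from 8 RNA-seq libraries: the 4 libraries of dCBP-treated cells against the 4 libraries of DMSO-treated and NT cells, out of 20 RNA-seq libraries and 32 samples in the series. RH4 is an established line of human alveolar rhabdomyosarcoma, a childhood tumour of the skeletal muscle lineage, and all groups shared this line and its culture medium. dCBP was given at 100 nM or 1 µM for 2 h or 6 h, with 1 library for each dose and time. The controls were DMSO, the solvent, at 2 h and 6 h, and a condition that the labels call NT and do not spell out, also at 2 h and 6 h. Each dose and time was a single library. Doses of dCBP, and DMSO and NT were therefore pooled within a time. Nothing in the labels says that the dishes were separate cultures. The p-values therefore measure only the spread between these libraries, which may be technical in part.

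CBP (gene CREBBP) and p300 (gene EP300) are related lysine acetyltransferases that act as coactivators: they are brought to enhancers and promoters by transcription factors and acetylate histones there, a mark read by bromodomain proteins such as the BET family. The series design text speaks of inhibitors or degraders of CBP and p300, and dCBP is known as a degrader, a molecule with 2 binding ends that brings its target to the cereblon ubiquitin ligase so that the proteasome removes it. Most alveolar rhabdomyosarcomas carry the PAX3-FOXO1 fusion transcription factor, which keeps a set of muscle and growth regulators active through strong enhancers. The comparison asked which transcripts differed after a few hours of dCBP.

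Expression is given as CPM, the reads of a gene scaled to a common total of reads in coding genes. Control values are listed in the order DMSO 2 h, DMSO 6 h, NT 2 h and NT 6 h. Values with dCBP are listed in the order 100 nM at 2 h, 1 µM at 2 h, 100 nM at 6 h and 1 µM at 6 h. Changes are log2 differences of dCBP minus controls at equal time, as fitted by edgeR's quasi-likelihood test with time as a covariate, with their standard error (SE) and a p-value adjusted over all genes tested by the Benjamini-Hochberg method. A gene was called lower or higher at an adjusted p under 0.05. Since CPM are relative to all coding reads, a change in the RNA content of the whole cell is not seen, and fewer cells with a transcript cannot be told apart from less of it in each cell.

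Coding genes received 13528351 to 14122649 counts in the dCBP libraries and 15112191 to 16661051 in the controls. Reads outside the coding genes made up 8.36% to 11.3% of the dCBP libraries and 5.63% to 6.43% of the controls, without overlap, and the part of this difference in the results was not tested. The line showed its muscle markers in every library: DES, a muscle intermediate filament, stood at 439, 392, 413 and 436 CPM in the controls and at 385, 416, 373 and 266 CPM with dCBP, and FGFR4, a receptor kinase of this tumour, at 812, 763, 757 and 758 and at 727, 772, 731 and 555 CPM. MYOD1, MYOG and PAX3, the other markers chosen for the line, were present in every library but lower with dCBP, by 1.80, 1.76 and 1.21 on the log2 scale. Of 13 markers of blood, endothelial, epithelial, glial, neuronal and liver cells, 11 were too low to be tested in these libraries, and PTPRC, EPCAM, KRT5 and KRT14 were at 0 in all 8.

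Of 12541 genes tested, 1973 (15.7%) were lower with dCBP and 1743 (13.9%) higher, together 29.6%. The genes that fell were the more abundant ones, with a median of 68.9 CPM in the controls against 16.4 CPM for the genes that rose and 33.0 CPM over all genes tested. Together the lower genes took 26.2% of the control reads and 18.5% of the reads with dCBP, and the higher genes went from 5.70% to 8.77%. Large changes were mostly falls: 602 genes (4.8%) were lower and 310 (2.47%) higher by at least 2-fold, and 107 were lower and 22 higher by at least 4-fold. In deposited CPM, all 4 dCBP libraries lay below all 4 controls for 1373 genes (10.9%) and above them for 2493 (19.9%). These 2 counts lack the trimmed mean scaling of the calls. With library size alone the median log2 change over all genes tested was 0.15, against 0.02 with that scaling. The balance of the 2 counts therefore depends on the scale. As a background, NT differed from DMSO in 3 genes (0.024%) that were lower in NT and 57 (0.455%) that were higher, together 0.479%, with 1 residual degree of freedom.

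The counts depended on single 6 h controls and on the scale. Without the DMSO library at 6 h the calls were 1094 lower and 701 higher, without the NT library at 6 h 1075 and 730, and without 1 µM dCBP at 2 h the higher calls were 1139. On the authors' TPM, as log2(TPM + 1), of which coding genes held 27.9% to 35.4% with dCBP and 39.3% to 44.5% in the controls, the median over all genes tested moved from 0.02 to -0.28 on the log2 scale and limma called 5071 lower and 259 higher. With library size alone the median was 0.15 and the calls were 1467 and 3112, so that 32.0% of the calls were falls, against 53.1% with the trimmed mean scaling used here and 95.1% on TPM. Small shifts of a whole gene family are therefore given below with their value on the TPM scale.

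The genes of the targets themselves showed little change in RNA, and since a degrader acts on protein, these levels do not check the labels. EP300 stood at 271, 244, 313 and 247 CPM in the controls and at 349, 333, 283 and 318 CPM with dCBP, with a log2 change of 0.14 ± 0.08 (SE, adjusted p = 0.22). CREBBP stood at 528, 469, 578 and 470.1 CPM and at 590.3, 583, 639 and 650.2 CPM. In CPM all 4 dCBP libraries were above the controls for CREBBP, though only by 583 against 578 at the closest, a margin that depends on the scale. The log2 change of 0.15 ± 0.08 (SE, adjusted p = 0.18) did not pass over both times, and at 6 h alone it was 0.27 (adjusted p = 0.0342). CRBN, which encodes cereblon, stood at 37.8, 36.6, 41.1 and 38.5 CPM and at 41.6, 38.4, 28.3 and 41.9 CPM and did not pass (adjusted p = 0.34). None of the 10 lysine acetyltransferase genes tested was called by edgeR, where 2 had an unadjusted p under 0.05, and DESeq2 called 1 of them lower. Of 9 genes of the cereblon ligase and its partners, UBE2D3, a ubiquitin-conjugating enzyme, was lower with a log2 change of -0.37 ± 0.10 (SE, adjusted p = 0.0228), and the other 8 did not pass. The call of UBE2D3 was lost in 7 of 20 alternatives (adjusted p up to 0.183), among them those without DMSO at 6 h, NT at 6 h or 1 µM dCBP at 2 h.

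**Figure D1:**
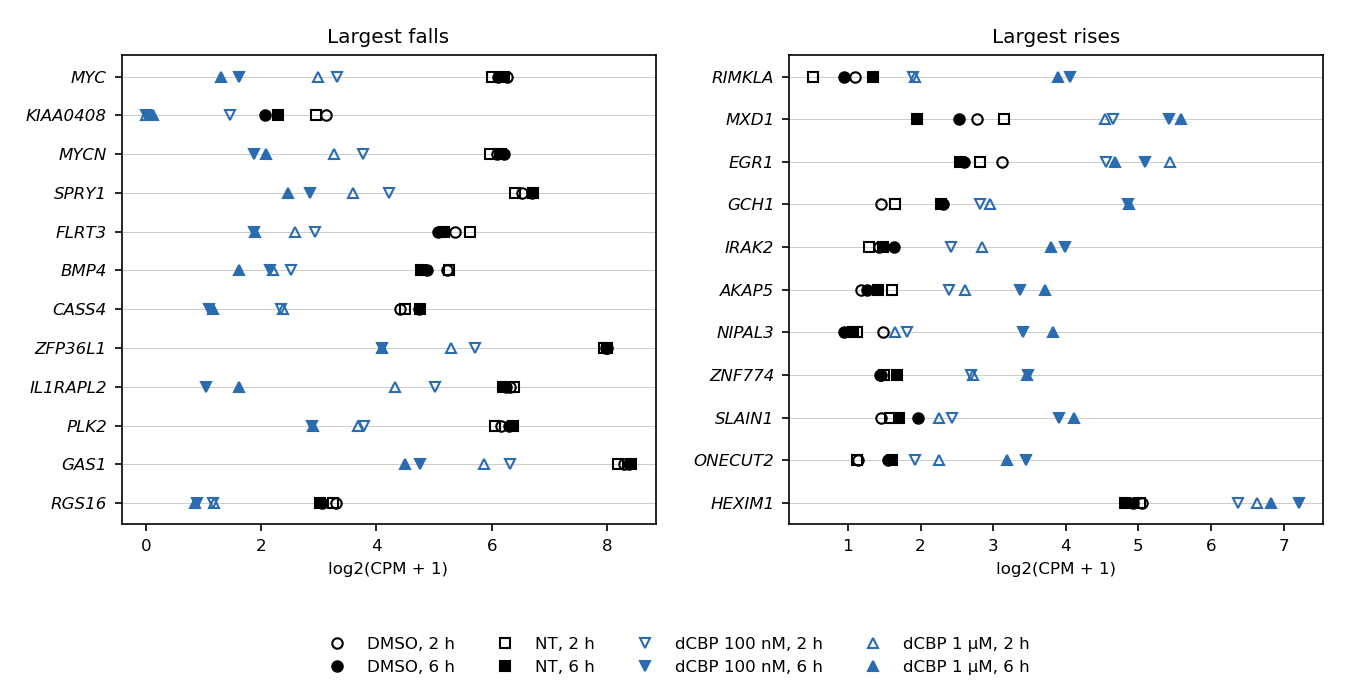
Expression of 12 genes with the largest falls and 11 of the 12 with the largest rises, among called genes that reached a mean of 5 CPM in the higher group, in each of the 8 libraries, on the log2(CPM + 1) axis, with 1 symbol per library (open, 2 h; filled, 6 h; black, controls; blue, dCBP). The groups do not overlap for any of these genes, which was a condition for choosing them, and the 6 h dCBP symbols lie farther from the controls than the 2 h symbols for MYC, MYCN and MXD1.

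Among genes that reached a mean of 5 CPM and whose groups did not overlap, the largest fall was that of MYC, a transcription factor that drives growth and division. MYC stood at 75.6, 67.6, 63.4 and 73.3 CPM in the controls and at 8.91, 6.95, 2.05 and 1.48 CPM with dCBP. Its log2 change of -4.13 ± 0.39 (SE, adjusted p = 0.000173) is a 17.5-fold fall over both times. MYCN, its paralog and a gene active in this tumour, went from 67.1, 73.2, 61.7 and 70.02 CPM to 12.6, 8.58, 2.69 and 3.24 CPM, with a log2 change of -3.59 ± 0.37 (SE, adjusted p = 0.000284). Per transcript length, on the authors' FPKM scale, MYCN was the higher of this pair in the controls, with a mean of 29.6 FPKM against 18.1 FPKM for MYC. For both genes the 6 h libraries at either dose were lower than the 2 h libraries.

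Negative regulators of signalling, adhesion proteins and an mRNA decay factor were among the other large falls. SPRY1, a Sprouty protein that restrains receptor tyrosine kinase signalling to ERK, stood at 90.9, 102, 83.3 and 104 CPM in the controls and at 17.6, 11.1, 6.16 and 4.50 CPM with dCBP, a log2 change of -3.49 ± 0.34 (SE, adjusted p = 0.000214). ZFP36L1, an RNA-binding protein that promotes decay of mRNAs with AU-rich elements, went from 253, 251, 245 and 253 CPM to 51.5, 38.4, 16 and 16.2 CPM, a log2 change of -3.32 ± 0.30 (SE, adjusted p = 0.00014). GAS1, a membrane protein that binds hedgehog ligands, went from 311, 333, 289.8 and 341 CPM to 78.2, 57.4, 25.9 and 21.5 CPM, a log2 change of -3.09 ± 0.34 (SE, adjusted p = 0.000385). These 3 genes were abundant in the controls, and the control libraries differed little from each other. FLRT3, a cell surface adhesion protein with leucine-rich repeats, went from 40.3, 32.4, 48.1 and 34.95 to 6.63, 5.03, 2.69 and 2.73 CPM (log2 change -3.36, SE 0.19, adjusted p = 1.26e-05). CASS4, a docking protein of focal adhesions, fell by 3.32 on the log2 scale, IL1RAPL2, a receptor of the interleukin 1 receptor family, by 3.26, and RGS16, which switches off G protein signalling, by 3.05. KIAA0408 was named by the same rule and stood at 7.75, 3.20, 6.77 and 3.90 CPM in the controls. With dCBP it was listed between 0 and 1.74 CPM, so its fitted value of -3.76 rests on few reads.

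All 7 core transcription factors of fusion-positive rhabdomyosarcoma that were listed (PAX3, FOXO1, MYOD1, MYOG, SOX8, MYCN and MYC) were lower, with a median change of -1.87 against 0.02 over all genes tested. The list was drawn up with earlier results of these data known, so its direction is a description. MYOD1, the master regulator of the muscle lineage, stood at 590.2, 677, 508 and 648 CPM in the controls and at 291, 309, 136 and 101 CPM with dCBP, a log2 change of -1.80 ± 0.31 (SE, adjusted p = 0.00402). MYOG, which acts after MYOD1 in muscle differentiation, went from 289.7, 300.1, 264 and 299 CPM to 186, 189, 54.5 and 34.2 CPM, a log2 change of -1.76 ± 0.42 (SE, adjusted p = 0.0139). PAX3, whose 5′ part belongs to the fusion gene, went from 77.5, 77.95, 72.6 and 74.7 CPM to 52.4, 46.9, 24.2 and 26.03 CPM (log2 change -1.21, SE 0.20, adjusted p = 0.00344). FOXO1, which supplies the 3′ part, went from 169, 186, 179 and 179 CPM to 112, 73.6, 21.2 and 28.5 CPM (log2 change -1.99, SE 0.38, adjusted p = 0.00633). Counts of PAX3 and FOXO1 hold reads of the fusion transcript and of the normal genes together, since the values are given per gene. SOX8, a SOX factor high in this line, went from 869.9, 847, 809 and 849 to 501, 529, 126 and 116 CPM. For all 7 genes both 2 h dCBP libraries were below all controls, and both 6 h libraries were lower still.

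Other regulators of the muscle lineage followed the same direction in 12 of 17 cases, with a median of -1.26, and the other 5 did not pass. MSC (musculin), a repressor of myogenic factors, went from 366, 256, 348 and 274 CPM to 97.9, 74.6, 44.04 and 32.2 CPM, a log2 change of -2.54 ± 0.20 (SE, adjusted p = 5.9e-05). PITX3, a homeobox factor of the muscle and eye lineages, fell by 2.37 on the log2 scale. Among the muscle structural and fusion genes, 8 of 30 fell and 22 did not pass, with a median of -0.38. MYMX, a small membrane protein needed for myoblast fusion, went from 24.6, 27.1, 23.9 and 28.1 CPM to 11.2, 9.46, 2.12 and 1.92 CPM, a log2 change of -2.40 ± 0.43 (SE, adjusted p = 0.00477). MYMK, its partner in fusion, stood at 6.90, 8.34, 7.68 and 7.08 and at 5.96, 7.10, 3.33 and 2.43 CPM, where controls and 2 h dCBP libraries overlapped. CAV3, the muscle caveolin, fell by 1.72. Without the 6 h DMSO library, the 6 h NT library or the 100 nM dCBP library at 6 h, the number of muscle genes called was 4 in each case, and without 1 µM dCBP at 6 h it was 5.

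Of 19 genes known as PAX3-FOXO1 targets that could be tested, 16 fell and 3 did not pass, with a median of -0.82. Without the 6 h DMSO library, the 6 h NT library or 100 nM dCBP at 6 h, 10 were called. TFAP2B, a transcription factor of the AP-2 family, stood at 78.3, 64.3, 81.1 and 64.2 CPM in the controls, at 35.6 and 32.4 CPM with dCBP at 2 h and at 3.12 and 3.10 CPM at 6 h. FGF8, a secreted growth factor, went from 45.7, 54, 41.8 and 57.7 CPM to 26.7, 29.4, 6.51 and 3.61 CPM, a log2 change of -2.03 ± 0.51 (SE, adjusted p = 0.0171). POU4F1, a POU-domain factor better known in neurons, fell by 1.57. FGFR4, ALK and PRKAR2B were the 3 that did not pass, with changes of -0.28, -0.43 and 0.69, and they are named because they were the exceptions.

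The BMP and TGF-beta pathway had few exceptions: 23 of 32 tested genes fell and 9 did not pass, with a median of -0.93. Bone morphogenetic proteins are secreted ligands that act through receptor kinases and SMAD proteins, and ID1, ID2 and ID3, inhibitors of helix-loop-helix factors such as MYOD1, are their usual targets. Among the ligands, BMP4 stood at 36.3, 28.4, 37.1 and 26.4 CPM in the controls and at 4.71, 3.62, 3.47 and 2.07 CPM with dCBP, a log2 change of -3.33 ± 0.17 (SE, adjusted p = 1.09e-05). BMP5 went from 53.2, 67.03, 62.02 and 67.6 CPM to 36.6, 33.8, 7.51 and 8.18 CPM, a log2 change of -1.94 ± 0.43 (SE, adjusted p = 0.0108). NOG (noggin), a secreted antagonist that binds BMP ligands, went from 30.6, 24.3, 23.9 and 24.3 CPM to 6.55, 7.32, 1.35 and 0.737 CPM, a log2 change of -3.03 ± 0.43 (SE, adjusted p = 0.00151). Ligands and antagonist were thus lower in the same libraries, BMP4 to a similar extent at 2 h and 6 h. Of the targets, ID3 went from 222, 197, 216 and 212 to 94.6, 95.95, 31.5 and 42.8 CPM and ID1 from 90.4, 73.5, 86.9 and 76.1 to 34.02, 49.2, 15.2 and 19.6 CPM, both chosen after their values were seen. Leaving out any 1 library left 21 to 25 genes lower.

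Feedback inhibitors of the receptor tyrosine kinase and ERK pathway also fell, in 11 of 15 cases, while 2 rose, with a median of -0.90. Apart from SPRY1 above, SPRY2 went from 116, 112, 108 and 112 CPM to 32.9, 27.8, 12.04 and 12.2 CPM, a log2 change of -2.64 ± 0.26 (SE, adjusted p = 0.000221). PHLDA1, a pleckstrin-homology protein induced by growth factors, went from 49.04, 51.2, 45.8 and 53.4 CPM to 12.5, 12.1, 5.88 and 6.71 CPM, a log2 change of -2.59 ± 0.22 (SE, adjusted p = 0.0001). In insulin-like growth factor signalling 6 of 17 genes fell and 1 rose. IRS1, the adaptor of the insulin and IGF receptors, went from 733, 599.8, 708 and 602 CPM to 341, 291, 44.4 and 32.3 CPM, a log2 change of -2.67 ± 0.53 (SE, adjusted p = 0.00725). IRS2, the related adaptor, rose from 4.50, 3.04, 4.44 and 2.12 CPM to 5.89, 7.47, 8.001 and 7.30 CPM and was named after its value was seen. IGF2BP3, an RNA-binding protein of the fetal type, and IGFBP5, a binding protein of IGF, fell by 1.18 and 1.04.

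Notch and Wnt genes were mixed. In the Notch pathway, in which membrane ligands on one cell activate receptors on the next, 10 of 21 genes fell and 5 rose. Target genes of the HES and HEY type went both ways, since HEY2 rose while HEYL and HES1 fell. HEYL went from 298, 334, 295 and 353 CPM to 139.8, 136, 39.9 and 36.5 CPM (log2 change -2.24, SE 0.38, adjusted p = 0.00375). HES1 went from 16.5, 14.4, 13.9 and 15.4 CPM to 6.92, 5.99, 3.19 and 3.10 CPM (log2 change -1.82, SE 0.22, adjusted p = 0.00073). LFNG, a glycosyltransferase that modifies Notch receptors, fell by 1.70. The 5 that rose were DLL3, DLL4, HEY2, NRARP and MAML1, named as the exceptions, of which DLL4 was at 0.240, 0.397, 0.312 and 0.386 CPM in the controls and at 1.69, 1.40, 4.25 and 2.58 CPM with dCBP. In the Wnt pathway 12 of 25 genes fell and 3 rose. FZD8, a receptor, went from 69.3, 59.4, 66.6 and 64.7 CPM to 23.7, 24.98, 19.3 and 14.5 CPM (log2 change -1.80, SE 0.14, adjusted p = 6.27e-05), WNT5A, a ligand, fell by 1.39, and LGR5, a receptor of R-spondins, by 1.32.

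Genes of YAP and TEAD, the effectors of the Hippo pathway, were lower in 12 of 16 cases, with a median of -0.52, and in 7 without the DMSO or the NT library at 6 h. ANKRD1, a common reporter of this pathway, went from 13.5, 10.1, 12.9 and 11.3 CPM to 4.86, 5.10, 1.20 and 2.14 CPM, a log2 change of -2.07 ± 0.27 (SE, adjusted p = 0.00109). AMOTL2, an angiomotin that holds YAP back, was at 243, 157, 244 and 158 CPM in the controls and at 118, 114, 73.4 and 76.9 CPM with dCBP, a log2 change of -1.19 ± 0.07 (SE, adjusted p = 2.08e-05). The control level of AMOTL2 itself differed between 2 h and 6 h, and the dCBP libraries lay below the controls at both times. AJUBA, a LIM-domain scaffold, fell by 1.19. In the hypoxia response 11 of 22 genes fell (6 without the DMSO or the NT library at 6 h and 7 without 1 µM dCBP at 6 h). The largest fall there was that of CITED2, a protein that binds CBP and p300 itself and competes with HIF1A for them, from 71.6, 68.1, 72.7 and 67.6 CPM to 17.01, 12.6, 12.3 and 9.51 CPM, a log2 change of -2.58 ± 0.15 (SE, adjusted p = 1.39e-05).

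Families of transcription factors with a mesenchymal or progenitor role were lower in most of their tested members. Of 13 mesenchymal factors 10 fell, with a median of -1.56, and leaving out any 1 library left the number at 10. ZEB2, a repressor of epithelial genes, went from 411, 397, 413 and 396 CPM to 191, 132, 36.6 and 35.5 CPM, a log2 change of -2.51 ± 0.40 (SE, adjusted p = 0.00297). SNAI2, a related repressor, went from 123, 101, 119 and 101 CPM to 35.9, 32.5, 11.1 and 15.5 CPM, a log2 change of -2.47 ± 0.23 (SE, adjusted p = 0.000162). MEOX1, a homeobox factor of the somite, went from 35.2, 30.3, 37.9 and 30.1 CPM to 18.6, 14.8, 1.77 and 0.811 CPM, a log2 change of -2.49 ± 0.55 (SE, adjusted p = 0.0109). Of 13 KLF factors, zinc finger proteins that bind GC-rich sequences, 11 fell and 1 rose. KLF4 went from 35.3, 22.6, 28.2 and 24.2 CPM to 7.51, 7.17, 3.40 and 1.70 CPM, a log2 change of -2.69 ± 0.26 (SE, adjusted p = 0.000185). KLF10, a factor induced by TGF-beta, fell by 2.05, and KLF5 by 1.87, the latter with -2.02 at 2 h and -1.72 at 6 h. Of 9 SOX factors 7 fell and 1 rose, and 3 were called without the DMSO or the NT library at 6 h and 4 without 100 nM dCBP at 6 h. SOX4 went from 163, 141, 152 and 135 CPM to 48.5, 41.5, 19.7 and 17.99 CPM, a log2 change of -2.45 ± 0.22 (SE, adjusted p = 0.000128), SOX9 fell by 1.82, and SOX6 by 1.37. SOX6 was at 26.95 CPM both with 100 nM dCBP at 2 h and in DMSO at 2 h. The call of SOX6 was lost in 7 of 20 alternatives (adjusted p up to 0.176).

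**Figure D2:**
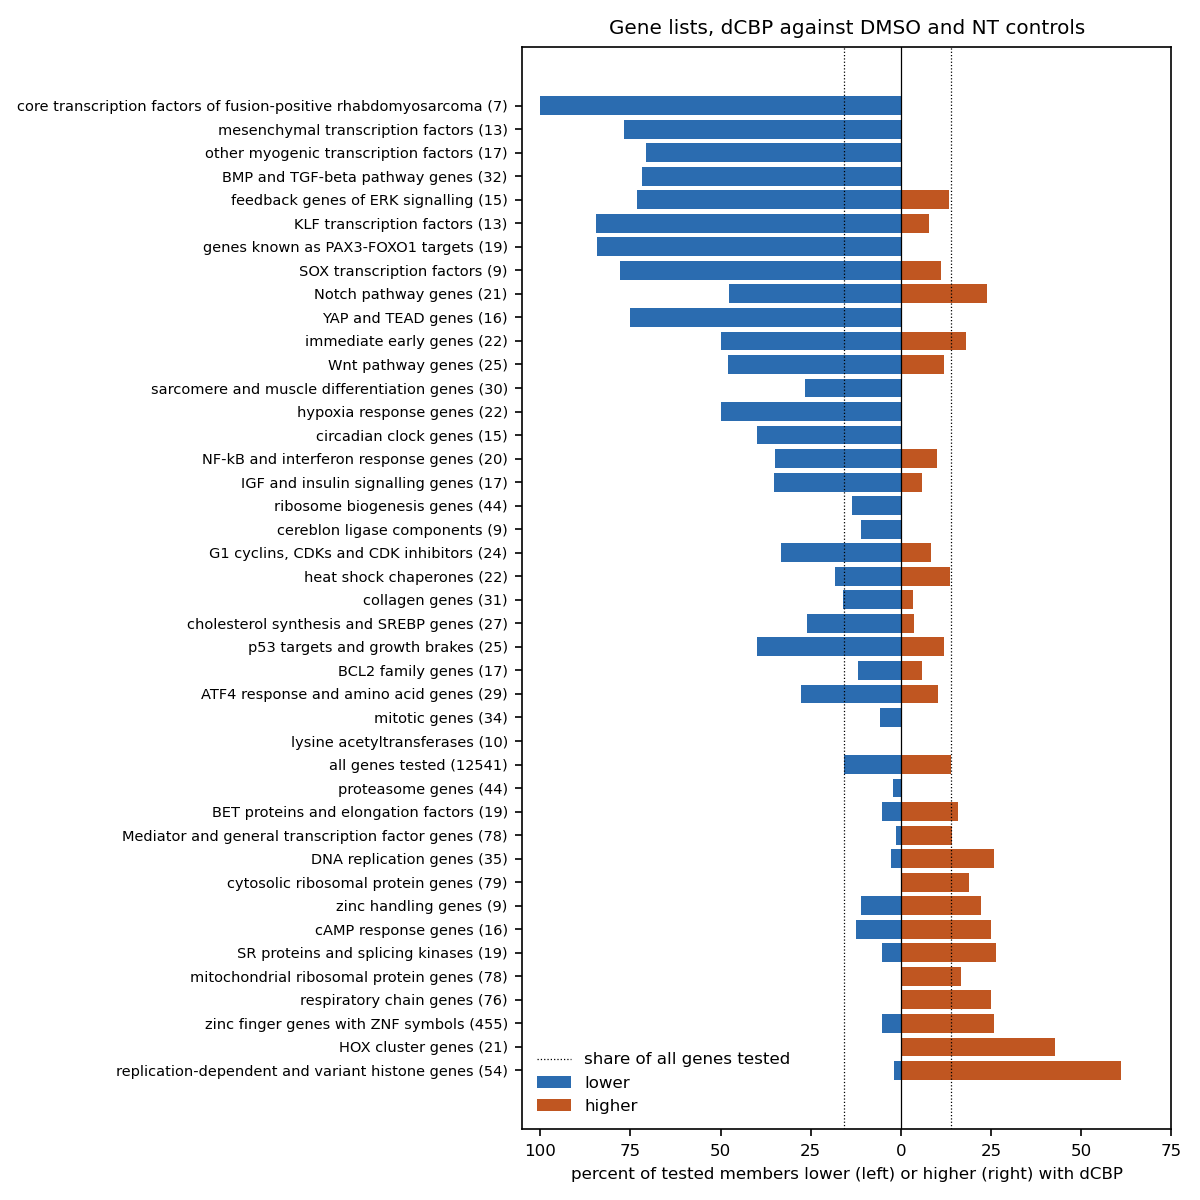
Percent of the tested members of each gene list that were lower (blue, to the left) or higher (orange, to the right) with dCBP, with the number tested in brackets and the lists ordered by their median change. Dotted lines mark the shares over all genes tested, 15.7% lower and 13.9% higher, and core, mesenchymal and myogenic transcription factors lie at the top and histone genes at the bottom, while on TPM the medians of the lists from the proteasome downward turned negative except for HOX (0.01) and histone genes (0.02).

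Immediate early genes, the first to answer a growth signal, split: 11 of 22 fell and 4 rose, and 2 rose without the DMSO or the NT library at 6 h. JUN, a subunit of AP-1, went from 510.1, 509.6, 492 and 508 CPM to 142, 129.9, 108 and 86.7 CPM, a log2 change of -2.25 ± 0.14 (SE, adjusted p = 2.08e-05). BTG2, an antiproliferative gene, went from 70.8, 64.3, 72.7 and 64.8 CPM to 19.4, 20.8, 18.3 and 18.2 CPM, a log2 change of -1.95 ± 0.09 (SE, adjusted p = 7.6e-06), and was as low at 2 h as at 6 h. EGR1, a zinc finger factor induced by the ERK pathway, moved the other way, from 7.74, 5.03, 6.06 and 4.83 CPM in the controls to 22.4, 42.1, 32.9 and 24.6 CPM with dCBP, a log2 change of 2.26 ± 0.21 (SE, adjusted p = 0.000162). FOS, the partner of JUN in AP-1, rose as EGR1 did, from 1.38, 0.529, 1.56 and 0.901 to 2.21, 5.10, 3.75 and 3.17 CPM, and was chosen after its values were seen.

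Of 24 G1 cyclins, kinases and their inhibitors 8 fell and 2 rose. Of 34 mitotic genes 2 fell and 32 did not pass. The mitotic genes called lower numbered 1 without DMSO at 6 h, NT at 6 h or 1 µM dCBP at 2 h, and 6 without 1 µM dCBP at 6 h. CCND1 (cyclin D1) went from 89.4, 93.04, 84.1 and 90.5 CPM to 66.5, 62.5, 20.1 and 19.8 CPM, a log2 change of -1.41 ± 0.32 (SE, adjusted p = 0.0123). CDK6, its kinase partner, went from 2507, 2605, 2766 and 2622 CPM to 2409, 1911, 618 and 832 CPM, a log2 change of -1.19 ± 0.30 (SE, adjusted p = 0.0172). CDKN2D, an inhibitor of CDK4 and CDK6, rose from 1.38, 2.12, 2.56 and 2.51 CPM to 3.09, 3.40, 7.86 and 8.04 CPM (log2 change 1.16, SE 0.26, adjusted p = 0.0108). The median over the mitotic genes was -0.04 and turned to 0.09 with library size alone. CDC25B, a phosphatase that activates mitotic kinases, and BUB1B, a checkpoint kinase, were the 2 that fell, by 0.64 and 0.43, and the call of BUB1B was lost in 7 of 20 alternatives. Of 35 DNA replication genes 1 fell and 9 rose, the latter by 0.22 to 0.44 on the log2 scale. This number was 0 without the DMSO library at 6 h, 1 without the NT library at 6 h, and 3 or 4 without the other control libraries or a dCBP library at 2 h. On TPM the median of replication genes was -0.24 against 0.11 on the scale used here.

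Of 25 genes known as p53 targets, many of them growth brakes, 10 fell and 3 rose. PLK2, a polo-like kinase, went from 70.3, 77.4, 65.6 and 81.8 CPM to 12.8, 11.8, 6.37 and 6.49 CPM, a log2 change of -3.14 ± 0.23 (SE, adjusted p = 5.2e-05). GADD45G, a stress sensor, went from 10.1, 9.33, 14.1 and 9.53 CPM to 1.99, 3.84, 1.70 and 0.959 CPM, a log2 change of -2.50 ± 0.28 (SE, adjusted p = 0.000417). SESN2, a sestrin that restrains mTORC1, was among those that rose, from 21.3, 19.1, 20.8 and 19.6 CPM to 43.2, 49.01, 72.9 and 57.95 CPM, a log2 change of 1.32 ± 0.13 (SE, adjusted p = 0.000255). The median of this list was -0.11 and lay between -0.30 (limma on TPM) and 0.05 (without DMSO at 2 h) over the alternatives. Of 17 BCL2 family genes 2 fell (11.8%) and 1 rose (5.88%), under the 15.7% and 13.9% of all genes tested. BMF, a BH3-only promoter of cell death, went from 130.5, 79.5, 145 and 93.5 CPM to 65.1, 51.96, 12.8 and 9.81 CPM (log2 change -2.15, SE 0.33, adjusted p = 0.00221). BOK fell by 0.64 and BAD rose by 0.61, and the call of BAD was lost in 9 of 20 alternatives.

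Stress, metabolic and inflammatory programs were split. Of 20 NF-kB and interferon response genes 7 fell and 2 rose. TNFAIP3 (A20), an enzyme that limits NF-kB signalling, went from 171, 186, 162 and 182 CPM to 51.2, 39.9, 29.2 and 25.5 CPM, a log2 change of -2.42 ± 0.20 (SE, adjusted p = 8.3e-05). NFKB1 fell by 0.95, and SOCS3, an inhibitor of cytokine signalling, by 0.98. Of 29 ATF4 and amino acid genes 8 fell (5 without the DMSO or the NT library at 6 h) and 3 rose: STC2, a secreted glycoprotein, fell by 1.45 and CHAC1, a glutathione-degrading enzyme, rose by 1.27. Of 22 heat shock genes 4 fell and 3 rose, shares near those of all genes tested, and 2 fell without a 6 h library. HSPB8 fell by 1.67, DNAJB4 fell by 0.94, and HSPA1B, an inducible HSP70 gene, rose from 64.6, 81.8, 54.6 and 67.9 CPM to 88.6, 96.6, 295 and 258 CPM, a log2 change of 1.14 ± 0.21 (SE, adjusted p = 0.00502). HSPA1B and HSPA1A are near-identical copies, so the split of their reads is uncertain. Of 27 cholesterol genes 7 fell and 1 rose. Of 15 clock genes 6 fell, among them BHLHE40, a repressor also counted in the hypoxia list, by 2.00, RORA by 1.64 and NR1D2 by 0.81.

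The genes that rose had lower control levels. Among those that reached 5 CPM and did not overlap, the largest rises were in genes at a few CPM. RIMKLA, an enzyme that makes N-acetylaspartylglutamate, stood at 1.14, 0.926, 0.437 and 1.55 CPM in the controls and at 2.72, 2.81, 15.7 and 13.9 CPM with dCBP, a log2 change of 2.72 ± 0.37 (SE, adjusted p = 0.0012). MXD1, which pairs with MAX and opposes MYC at its sites, went from 5.88, 4.78, 7.88 and 2.86 CPM to 24.2, 22.3, 41.9 and 47.2 CPM, a log2 change of 2.49 ± 0.31 (SE, adjusted p = 0.000851). MXD1, MYC and MYCN were each named for groups that did not overlap, so their opposite levels in the same libraries follow from that choice. GCH1, the first enzyme of tetrahydrobiopterin synthesis, went from 1.74, 3.97, 2.12 and 3.86 CPM to 6.04, 6.73, 28.1 and 28.3 CPM (log2 change 2.24, SE 0.21, adjusted p = 0.000145). IRAK2, a kinase of interleukin 1 and Toll-like receptor signalling, went from 1.68, 2.12, 1.44 and 1.80 CPM to 4.34, 6.21, 14.9 and 12.9 CPM (log2 change 2.20, SE 0.24, adjusted p = 0.000355). AKAP5, an anchor of protein kinase A, rose by 2.05, SLAIN1, a microtubule plus-end protein, by 1.79, ONECUT2, a cut-homeobox factor, by 1.73, and NIPAL3 by 2.01. That the controls and the dCBP libraries did not overlap was a condition for naming these 4 genes. For NIPAL3 the margin was small, with 2.14 CPM in 1 µM dCBP at 2 h against 1.80 CPM in DMSO at 2 h. The call of NIPAL3 was lost in 3 of 19 alternatives (adjusted p up to 0.0921).

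HEXIM1 stood out among the rises for its control level, 32.1, 29.3, 31.4 and 27.1 CPM. HEXIM1 is the inhibitor of P-TEFb, the kinase that releases paused RNA polymerase II, and it was at 81.4, 98.1, 147 and 112 CPM with dCBP, a log2 change of 1.73 ± 0.15 (SE, adjusted p = 9.81e-05). Of 19 elongation factors and BET genes tested, HEXIM1 included, 3 rose (15.8%, near the 13.9% of all genes tested). In the same list 1 fell (5.26%, under the 15.7% of all genes tested). BRD2, a BET bromodomain protein, went from 203, 187, 198 and 175 CPM to 256, 273, 342 and 300.0 CPM (log2 change 0.49, SE 0.09, adjusted p = 0.00626). ELL2, a super elongation complex subunit, went from 55.3, 40.8, 50.4 and 44.02 CPM to 37.7, 31.4, 18.1 and 24.9 CPM (log2 change -0.92, SE 0.14, adjusted p = 0.00247). CDK9, the kinase of P-TEFb, chosen after its values were seen, did not pass, with a change of 0.01. The median of the list was 0.10 and turned to -0.24 on TPM.

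Histone genes were the list with the largest share of rises: 33 of 54 tested genes rose and 1 fell, with a median of 0.40, and 23 to 34 rose when any 1 library was left out. On the TPM scale the median was 0.02 and 7 rose, and with library size alone 42 rose. H4C14 stood at 319, 439, 314 and 407 CPM in the controls and at 568, 686, 994 and 782 CPM with dCBP, a log2 change of 0.91 ± 0.10 (SE, adjusted p = 0.000427). H4C15, with a log2 change of 0.90 ± 0.10 (SE, adjusted p = 0.000423), and H4C14 are near-identical copies, as are many genes of this family, so the assignment of reads among them is uncertain. The exception was H2AC4, at 8.70, 12.04, 10.4 and 14.1 CPM and at 8.10, 9.76, 5.31 and 5.01 CPM, a log2 change of -0.82 ± 0.26 (SE, adjusted p = 0.0361). Its value with 1 µM dCBP at 2 h lay within the controls, and its call was lost in 7 of 20 alternatives (adjusted p up to 0.13). Replication-dependent histone mRNAs lack a poly(A) tail, and the labels give total RNA as the molecule.

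HOX and zinc finger genes also leaned to rises. Of 21 HOX genes 9 rose and 12 did not pass, with a median of 0.38, which was 0.01 on TPM with 2 called. HOXC13 went from 2.04, 1.92, 0.937 and 2.77 CPM to 3.17, 6.28, 11.1 and 7.08 CPM (log2 change 1.69, SE 0.31, adjusted p = 0.00504), HOXB3 rose by 1.03 and HOXA13 by 0.88. Of 455 zinc finger genes with ZNF symbols 118 rose and 24 fell, with a median of 0.23, which turned to -0.10 on TPM with 12 higher and 75 lower. Without the DMSO library at 6 h the ZNF counts were 68 higher and 12 lower, and without NT at 6 h 73 and 12. ZNF774 went from 1.74, 1.72, 1.81 and 2.19 CPM to 5.45, 5.62, 10.1 and 10.1 CPM (log2 change 1.89, SE 0.19, adjusted p = 0.000221). The largest single change among the called ZNF genes was a fall: ZNF608 went from 56.8, 34.1, 60.8 and 35.9 CPM to 19.1, 12.8, 4.39 and 4.79 CPM (log2 change -2.46, SE 0.23, adjusted p = 0.000173). ZNF217, a repressor, went from 357, 328, 391 and 326 CPM to 115, 98.3, 91.1 and 119 CPM (log2 change -1.85, SE 0.10, adjusted p = 1.26e-05).

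Housekeeping families shifted by small amounts whose sign depended on the scale. Among 79 cytosolic ribosomal protein genes 15 rose and 64 did not pass, with a median of 0.12, against -0.26 on TPM with 38 lower. Among 76 respiratory chain genes 19 rose (median 0.20, and -0.18 on TPM with 18 lower), and among 78 mitochondrial ribosomal genes 13 rose (median 0.16, and -0.19 on TPM with 18 lower). RPS21, a protein of the small ribosomal subunit, stood at 79.7, 94.03, 79.1 and 93 CPM and at 122, 156, 148 and 133 CPM, a log2 change of 0.57 ± 0.11 (SE, adjusted p = 0.0059), and NDUFA3, a complex I subunit, rose by 0.69. MRPL20, of the mitochondrial large subunit, rose by 0.71. Of 44 ribosome biogenesis genes, a class known as MYC targets, 6 fell and 38 did not pass. This was 13.6% lower, under the 15.7% of all genes tested. WDR43, DKC1 and NOLC1, nucleolar proteins of this class, fell by 0.58, 0.45 and 0.40, and in each of the 3 at least 1 dCBP library at 2 h overlapped the controls. Their calls were lost in 12, 12 and 9 of 20 alternatives. These counts were the most fragile: the 15 ribosomal protein genes became 4 without 1 µM dCBP at 2 h and 6 to 8 without any 1 control, and the 19 respiratory genes 4 without DMSO at 6 h and 7 to 12 without another control, 1 µM dCBP at 2 h or 100 nM dCBP at 6 h. The 13 mitochondrial ribosomal genes became 5 or 6 without any 1 control or 1 µM dCBP at 2 h, and the 6 biogenesis genes 0 without a 6 h library, 2 without 1 µM dCBP at 2 h and 10 without 100 nM dCBP at 2 h.

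In the general transcription and splicing machinery the calls were near or above the background of rises. Of 78 Mediator and general transcription factor genes 11 rose (14.1%, near the 13.9% of all genes tested) and 1 fell. Their median was 0.10, and -0.24 on TPM. The rises numbered 4, 5 and 7 without NT at 6 h, DMSO at 6 h and 1 µM dCBP at 2 h. GTF2B, which recruits RNA polymerase II to promoters, went from 20.4, 20.3, 17.3 and 20.1 CPM to 29.1, 33.04, 40.9 and 40.8 CPM (log2 change 0.75, SE 0.10, adjusted p = 0.00123), MED30, a Mediator subunit, rose by 0.72 and TAF3, a TFIID subunit, by 0.69. Of 19 SR proteins and splicing kinases 5 rose and 1 fell (median 0.15, and -0.26 on TPM), with TRA2A at 37.6, 39.6, 40.04 and 38.9 CPM and 57.5, 56.8, 62.7 and 75.3 CPM (log2 change 0.56, SE 0.09, adjusted p = 0.00286), while SRSF4 rose by 0.54 and SRSF5 by 0.53. Of 44 proteasome genes 1, PSMA3, was called lower, by 0.29, and 43 did not pass (median 0.05, and -0.31 on TPM). The call of PSMA3 was lost in 15 of 20 alternatives (adjusted p up to 0.284), and 0 to 2 proteasome genes were lower without 1 library. Smaller lists gave few calls: 5 of 31 collagen genes fell (16.1%, near the 15.7% of all genes tested) and 1 rose. COL19A1, COL14A1 and COL24A1 were lower by 0.79, 0.75 and 0.55. Leaving out a 6 h library or 1 µM dCBP at 2 h left 1 or 2 collagens lower, and COL24A1 lost its call in 12 of 20 alternatives. Of 16 cAMP response genes 2 fell and 4 rose (median 0.13, and -0.08 on TPM), with PDE3A, a phosphodiesterase, lower by 1.14 and RGS2 and NR4A1 higher by 0.77 and 0.63, and the number of rises was 0 to 2 without DMSO at either time, NT at 6 h or 1 µM dCBP at 2 h. Of 9 zinc handling genes SLC39A10, an importer, fell by 0.55, and SLC30A3, an exporter, and MTF1, the metal-responsive factor, rose by 1.33 and 0.27, although MTF1 was at -0.10 on TPM.

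The response grew between 2 h and 6 h, which was the next comparison. Fitted at each time, the 2 h libraries gave 565 falls (4.51%) and 366 rises (2.92%), together 7.42% of all genes tested. The 6 h libraries gave 2749 falls (21.9%) and 2347 rises (18.7%), together 40.6%, with 2 libraries against 2 at each time. All 1973 genes lower over both times had a negative fitted change at 2 h, and 1742 of the 1743 higher genes a positive one. The 2 h libraries took part in choosing these genes, so the shared sign follows largely from that choice. At 2 h alone 555 of the lower and 333 of the higher genes were called. The median of the lower genes was -0.36 at 2 h and -0.98 at 6 h, and that of the higher genes 0.41 and 0.70. The test of the difference between the times, the interaction of dCBP with time, called 976 genes (7.78%) with a lower and 236 (1.88%) with a higher change at 6 h than at 2 h, together 9.66%. Of the 976, 967 were called lower at 6 h and 321 already at 2 h, and 6 were called higher at 2 h.

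**Figure D3:**
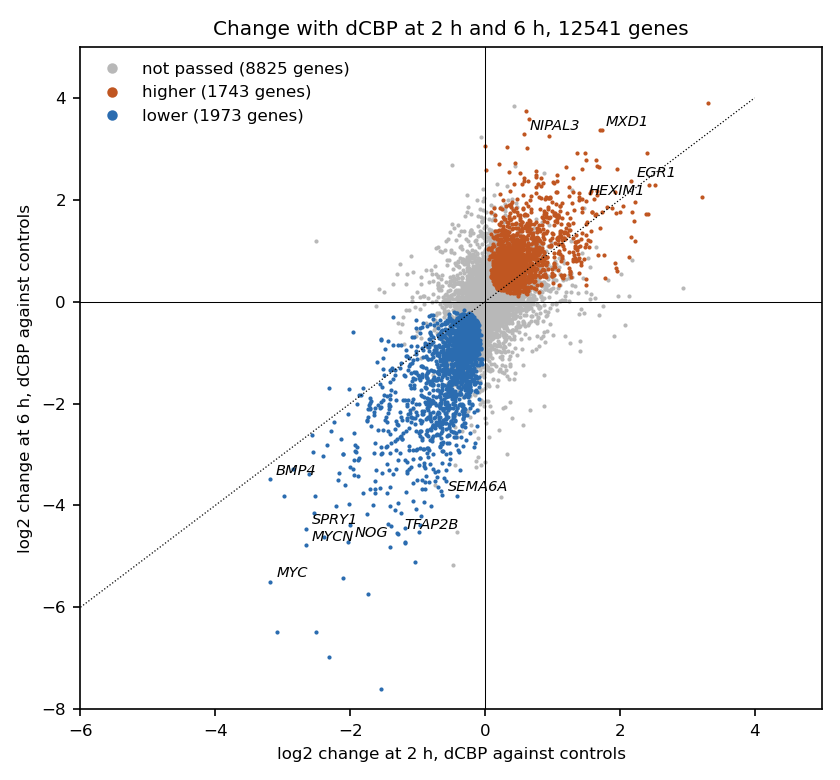
Fitted log2 change with dCBP at 2 h (horizontal axis) and at 6 h (vertical axis), 1 point per gene, coloured by the call over both times, with equal change on the dotted line. Most lower genes lie beneath the dotted line, SEMA6A and TFAP2B lie far beneath it, and BMP4 and EGR1 lie near it.

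The 4 genes with the smallest interaction p were SEMA6A, TFAP2B, MN1 and SOX8. SEMA6A, a transmembrane semaphorin, stood at 249.7, 222, 251 and 231 CPM in the controls, at 168 and 166 CPM with dCBP at 2 h and at 17.6 and 19.4 CPM at 6 h, and its change at 6 h minus that at 2 h was -3.16 ± 0.14 (SE, adjusted p = 8.43e-07). TFAP2B differed by -3.27 ± 0.19 (SE, adjusted p = 4.84e-06) and SOX8 by -2.23 ± 0.14 (SE, adjusted p = 7.76e-06). MN1, a transcriptional coregulator, stood at 275, 262, 301 and 278 CPM in the controls, 121 and 117 CPM at 2 h and 16.5 and 19.5 CPM at 6 h, with a difference of -2.76 ± 0.16 (SE, adjusted p = 4.84e-06). In all 4 the dCBP libraries at 2 h lay below the controls and those at 6 h lower again. Genes with no call in this test included BMP4, at -3.19 and -3.48, a difference of -0.29 ± 0.31 (SE, adjusted p = 0.62), and BTG2, at -1.90 and -2.01, a difference of -0.11 ± 0.16 (SE, adjusted p = 0.74). Among the rises, NIPAL3 went from 0.57 to 3.30, a difference of 2.72 ± 0.45 (SE, adjusted p = 0.00217), and MXD1 from 1.70 to 3.36, a difference of 1.66 ± 0.30 (SE, adjusted p = 0.00359). The number of interaction calls was 594 to 642 lower without DMSO at either time, NT at 6 h or 100 nM dCBP at 2 h, and 1503 and 2207 without 100 nM and 1 µM dCBP at 6 h. The higher calls were 64 to 75 without any 1 control or 100 nM dCBP at 2 h, 137 without 1 µM dCBP at 2 h, and 561 and 1307 without 100 nM and 1 µM dCBP at 6 h.

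The doses of dCBP, 1 µM and 100 nM, could not be told apart gene by gene. At an adjusted p under 0.05 edgeR called 0 genes (0%), where 51 had an unadjusted p under 0.05, and DESeq2 called 0, with 18 at an unadjusted p under 0.05. At 2 h, 9 genes differed by at least 2-fold between the doses on the log2(CPM + 1) scale, and at 6 h 56, compared with 39 and 9 between DMSO and NT. In simulated counts the same fit recovered 79.9% of 199 genes changed by 1 on the log2 scale. Those counts held no other change, whereas the dCBP response here grew between 2 h and 6 h. The dose model has no term for that growth. Its spread, as edgeR's common coefficient of variation, was 0.155, against 0.101 in the model with the interaction. The recovered share therefore does not carry over to these data, and 0 calls do not show that the doses acted alike. Among the core genes at 6 h with 100 nM and 1 µM, MYCN was at 2.69 and 3.24 CPM and SOX8 at 126 and 116 CPM. PAX3 was at 24.2 and 26.03 CPM and FOXO1 at 21.2 and 28.5 CPM. MYOD1 was at 136 and 101 CPM, MYOG at 54.5 and 34.2 CPM and MYC at 2.05 and 1.48 CPM. At 2 h FOXO1 was at 112 and 73.6 CPM, MYCN at 12.6 and 8.58 CPM and MYOD1 at 291 and 309 CPM.

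dCBP was compared with the other compounds at matched dose and time, without using any control library, with p-values adjusted over all genes and the 3 pairs together. A485 is known as an inhibitor of the catalytic domain of both acetyltransferases, the labels give no structure for IHK-44 or JQAD, and no statement on structure is made. Against IHK-44, dCBP gave 5 genes lower (0.0388%) and 44 higher (0.341%) of 12895, together 0.38%. Against A485 it gave 133 lower (1.03%) and 176 higher (1.36%), together 2.4%, and against JQAD 1267 lower (9.83%) and 1210 higher (9.38%), together 19.2%. The 3 comparisons share the dCBP libraries. The counts rested in part on single libraries. Against IHK-44 there were 1 (without 100 nM IHK-44 at 2 h) to 12 (without 100 nM dCBP at 2 h) lower and 6 (without 1 µM dCBP at 2 h) to 43 higher. Against A485 there were 22 (without 1 µM dCBP at 6 h) to 243 lower and 51 (without 100 nM dCBP at 6 h) to 342 higher, both upper values without 100 nM dCBP at 2 h. Against JQAD there were 368 (without 1 µM dCBP at 6 h) to 1555 lower and 445 (without 1 µM JQAD at 6 h) to 1310 higher, both upper values without 100 nM JQAD at 2 h.

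**Figure D4:**
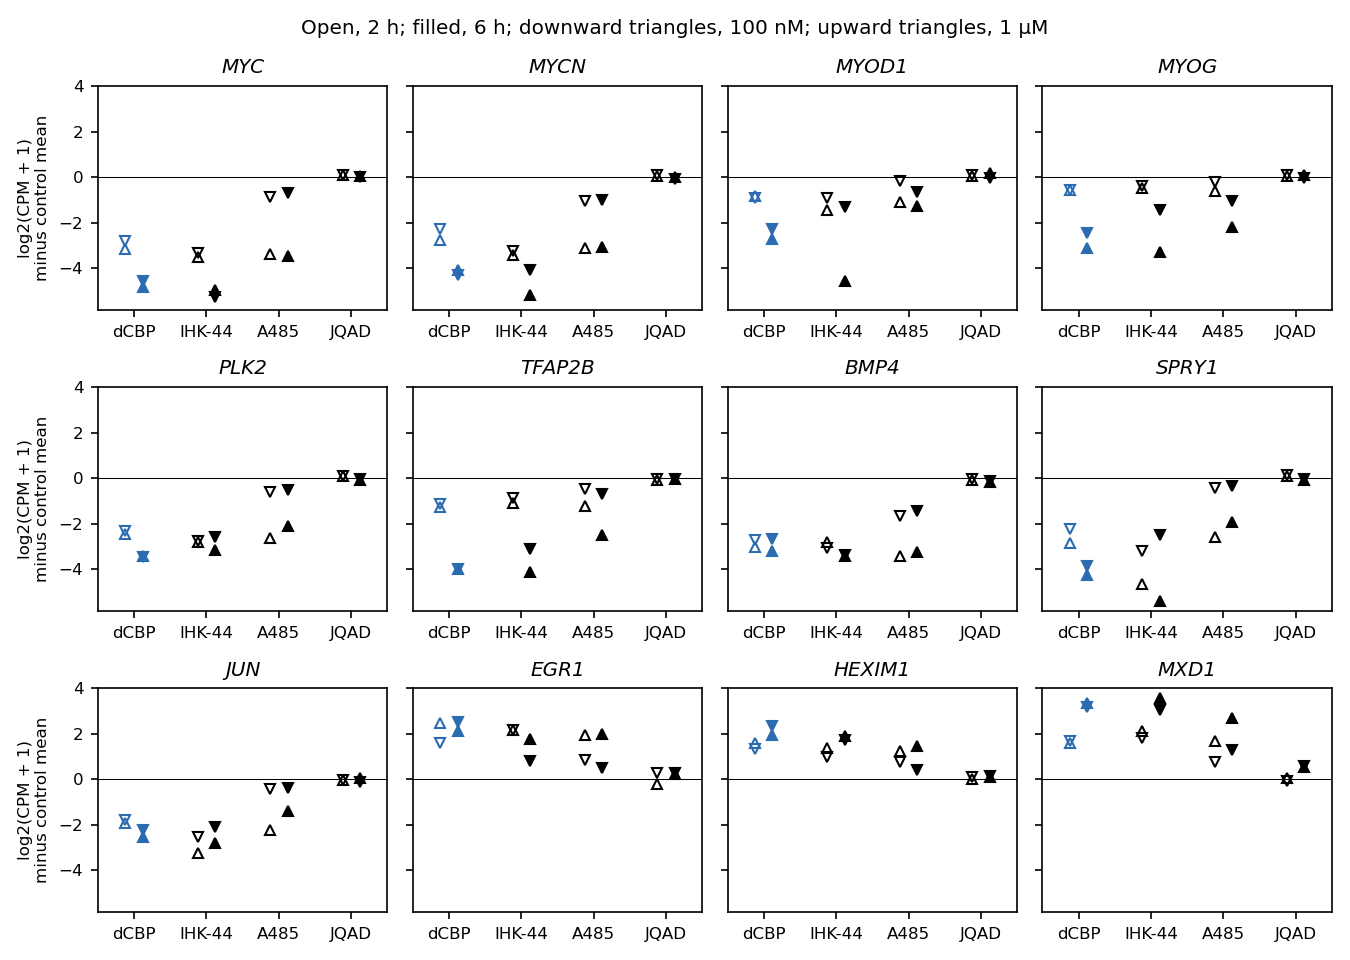
Difference of each treated library from the mean of the DMSO and NT libraries at the same time, on the log2(CPM + 1) scale, for 12 genes under dCBP (blue) and 3 other compounds (black). JQAD lies within 0.56 of 0 for all 12 genes, A485 at 100 nM lies closer to 0 than at 1 µM for MYC and MYCN, and the ranges of dCBP and IHK-44 overlap for all 12.

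With JQAD, MYC was near its control level. MYC was at 74.03, 72.9, 70.4 and 72.7 CPM with JQAD (in the order used for dCBP), and lower with dCBP, with a log2 difference of -4.27 (95% interval -5.75 to -2.79, adjusted p = 0.00449). The 4 genes with the smallest p in this pair were CITED2, TENT5A, IRX1 and NFKBIZ. CITED2 was lower with dCBP than with JQAD with a log2 difference of -2.57 (95% interval -3.14 to -1.99, adjusted p = 0.0015). For TENT5A, a poly(A) polymerase, the result was a log2 difference of -1.91 (95% interval -2.33 to -1.49, adjusted p = 0.0015). IRX1, a homeobox factor, gave a log2 difference of -1.07 (95% interval -1.31 to -0.82, adjusted p = 0.0015). NFKBIZ, an atypical NF-kB inhibitor, gave a log2 difference of -1.57 (95% interval -1.94 to -1.21, adjusted p = 0.0015). 

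With A485 the level depended on the dose. MYC was at 37.4, 5.76, 43.7 and 5.54 CPM with A485 and at 8.91, 6.95, 2.05 and 1.48 CPM with dCBP, and the difference over the 4 pairs was -2.24 (95% interval -3.71 to -0.77, adjusted p = 0.0645). At 1 µM and 2 h both compounds had brought MYC to similar levels, and at 100 nM the A485 libraries were higher at both times. KLF5 was lower with dCBP with a log2 difference of -1.61 (95% interval -2.12 to -1.09, adjusted p = 0.00313). TNFAIP3 gave a log2 difference of -1.82 (95% interval -2.53 to -1.11, adjusted p = 0.00773). TENT5A, at 154, 83.7, 179 and 125 CPM with A485, gave a log2 difference of -1.39 (95% interval -1.81 to -0.98, adjusted p = 0.00231). The 4 smallest p belonged to the histone genes H4C3, H4C14 and H4C15 and to ATP5MF, a subunit of ATP synthase. H4C14 was at 365, 335, 391 and 476 CPM with A485 and at 568, 686, 994 and 782 CPM with dCBP, higher with dCBP with a log2 difference of 0.91 (95% interval 0.64 to 1.17, adjusted p = 0.00231). ATP5MF was higher with a log2 difference of 0.66 (95% interval 0.46 to 0.86, adjusted p = 0.00231). The histone copies share reads, so they are not separate evidence. Reads outside the coding genes made up 4.64% to 6.37% of the A485 libraries and 8.36% to 11.3% of the dCBP libraries, without overlap. The part of this difference in the histone and other results of this pair was not tested.

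Against IHK-44 few genes differed, and for the core genes the interval of the difference was wide. Each difference is a mean over both doses, which hides opposite differences. At 6 h MYOD1 was at 270 CPM with 100 nM IHK-44 and 136 CPM with 100 nM dCBP. At 1 µM it was at 27.2 and 101 CPM. SOX8 was at 246 and 126 CPM at 100 nM and at 43.6 and 116 CPM at 1 µM. MYC did not turn, at 0.833 and 2.05 CPM and at 1.26 and 1.48 CPM. The dependence on dose was not tested. MYCN differed by 0.85 (95% interval -0.40 to 2.09, adjusted p = 0.416), MYOD1 by 0.19 (95% interval -0.83 to 1.21, adjusted p = 0.852) and BMP4 by 0.33 (95% interval -0.60 to 1.26, adjusted p = 0.698), so that differences of 2-fold in 1 direction are within the intervals of these 3 genes. For HEXIM1 the difference was 0.35 (95% interval -0.07 to 0.77, adjusted p = 0.308). Of the genes called in this pair, CD37, a tetraspanin, was higher with dCBP with a log2 difference of 0.87 (95% interval 0.45 to 1.29, adjusted p = 0.0196). TNXB, an extracellular matrix protein, gave a log2 difference of 0.43 (95% interval 0.23 to 0.63, adjusted p = 0.0183). TRIM56, a ubiquitin ligase, gave a log2 difference of 0.36 (95% interval 0.19 to 0.54, adjusted p = 0.0194). TNXB and TRIM56 did not differ from controls with dCBP at the threshold used.

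The title of the series speaks of CpG islands, so promoter composition was described for the genes that fell and rose. RefSeq promoters (250 bases before to 50 after the start, GRCh38.p14) were matched by symbol for 10251 of the 12541 genes. The observed number of CpG dinucleotides over that expected from the C and G content is near or above 0.6 in CpG islands. At least 0.6 was found in 75.2% of promoters of lower genes (95% exact binomial interval 73.0% to 77.3%), in 85.6% of higher genes (83.6% to 87.4%) and in 84.3% of genes that did not pass (83.4% to 85.1%). Read the other way, 28.3% of genes with a ratio of at most 0.2 were lower with dCBP, 26.0% between 0.2 and 0.4, and 11.8% above 1.0, whereas the share that was higher ran from 10.2% to 15.5% over the classes. Genes are not independent samples, and the intervals cover counting error only.

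**Figure D5:**
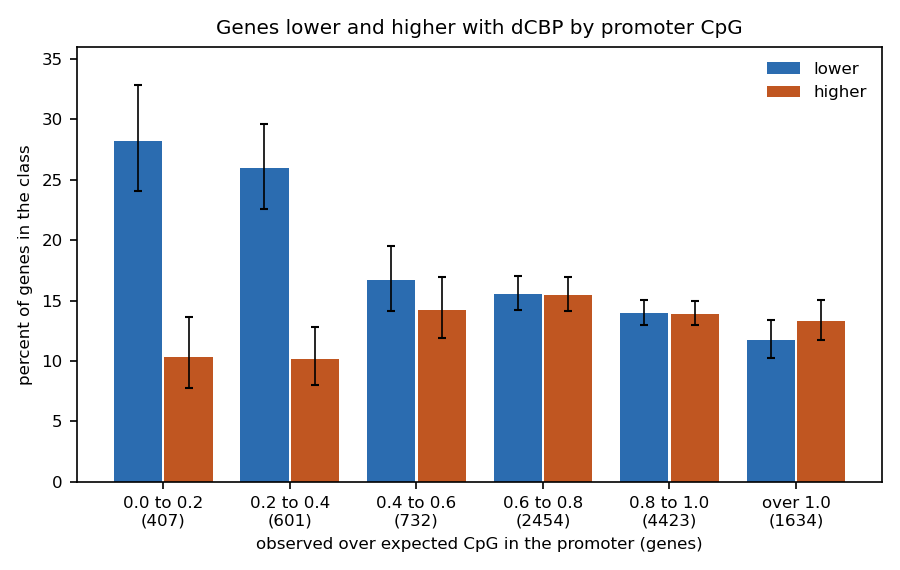
Percent of genes lower (blue) and higher (orange) with dCBP in 6 classes of observed over expected CpG in the promoter, with the number of genes in brackets and 95% Wilson intervals as error bars. The share of lower genes falls from 28.3% in the class with the least CpG to 11.8% in the class with the most.

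The sequences of 4 promoters show the range, with each CpG in capitals. FLRT3 and TFAP2B are large falls with few CpG, PLK2 is a large fall with many, and HEXIM1 is a rise with many. The RefSeq regions are chr20:14337563-14337862 (minus strand), chr6:50818621-50818920 (plus), chr5:58460037-58460336 (minus) and chr17:45148225-45148524 (plus), each of 300 bases around the start of the gene, written 5′ to 3′.
FLRT3: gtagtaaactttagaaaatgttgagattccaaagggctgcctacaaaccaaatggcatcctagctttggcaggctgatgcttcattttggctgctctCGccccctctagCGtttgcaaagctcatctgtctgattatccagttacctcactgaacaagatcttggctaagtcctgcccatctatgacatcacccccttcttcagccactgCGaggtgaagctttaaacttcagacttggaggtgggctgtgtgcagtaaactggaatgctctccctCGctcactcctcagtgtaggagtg
TFAP2B: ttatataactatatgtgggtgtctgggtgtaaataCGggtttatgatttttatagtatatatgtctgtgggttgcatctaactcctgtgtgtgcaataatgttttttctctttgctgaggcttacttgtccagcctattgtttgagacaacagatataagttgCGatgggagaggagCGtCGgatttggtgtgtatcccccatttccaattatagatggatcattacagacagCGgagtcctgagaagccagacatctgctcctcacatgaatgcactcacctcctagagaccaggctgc
PLK2: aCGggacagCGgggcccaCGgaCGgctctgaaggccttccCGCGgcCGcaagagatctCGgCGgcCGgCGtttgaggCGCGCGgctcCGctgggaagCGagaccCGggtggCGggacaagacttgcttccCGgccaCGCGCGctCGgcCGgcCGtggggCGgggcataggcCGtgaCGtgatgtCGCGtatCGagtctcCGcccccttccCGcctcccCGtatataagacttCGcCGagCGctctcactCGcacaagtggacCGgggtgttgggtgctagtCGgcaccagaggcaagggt
HEXIM1: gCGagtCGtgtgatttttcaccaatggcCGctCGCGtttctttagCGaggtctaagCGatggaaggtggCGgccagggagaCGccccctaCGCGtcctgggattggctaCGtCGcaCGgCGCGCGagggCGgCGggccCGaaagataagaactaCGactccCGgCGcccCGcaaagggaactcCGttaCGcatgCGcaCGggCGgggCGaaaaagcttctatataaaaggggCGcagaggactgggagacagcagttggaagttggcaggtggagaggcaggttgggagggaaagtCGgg
FLRT3 has 4 CpG (observed over expected 0.23), TFAP2B 5 (0.36), PLK2 40 (1.09) and HEXIM1 32 (1.17), so that a low ratio is not shared by all genes that fell.

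Of 7 motifs searched as exact letters on both strands, the core TATA letters TATAAA were in 9.09% of promoters of lower genes, 6.76% of higher genes, 4.72% of genes that did not pass and 11.95% of all 27305 RefSeq promoters of this length. CAGCTG, an E-box of the type bound by MYOD1, was in 20.5%, 14.9%, 16.9% and 17.7%, and CACGTG, the E-box of MYC, in 10.4%, 8.03%, 10.4% and 7.43%. CCAAT was in 33.8% of lower and 42.3% of higher genes, with 36.9% of those that did not pass and 35.7% of all promoters. The AP-1 letters TGACTCA were in 3.53%, 2.04%, 2.68% and 4.92%, the CRE letters TGACGTCA in 2.78%, 3.59%, 3.40% and 1.98%, and GGGCGG, bound by SP1 and KLF proteins, in 68.6%, 71.5%, 70.5% and 44.6%. TATAAA and CAGCTG were thus more frequent among the lower genes than among the tested genes that did not pass, and CCAAT among the higher genes. Lower genes also came from longer transcripts, with a median length of 4157 bases against 3205 for higher genes and 3181 for those that did not pass, and from longer gene spans (60654, 21886 and 30698 bases). The share of lower genes rose from 6.82% over the shortest 2509 transcripts to 22.8% over the longest 2508. Length and CpG content were not separated from each other or from expression level here.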

How the data were processed

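RNA-seq of 8 libraries (4 dCBP, 4 DMSO or NT) was used, with the 12 libraries of A485, IHK-44 and JQAD for the compound comparisons. Per the submitters' processing notes, tools included STAR 2.5.3a and RSEM 1.3.3, with hg38 among the builds. Which tool made each value is not given in the sources used here. The authors deposited, for each of 18980 coding genes, an expected count, a CPM, a TPM and an FPKM. Rounding to whole numbers preceded the tests in edgeR 4.0.16 (R 4.3.3), using trimmed mean scaling, filtering by expression and the quasi-likelihood test with Benjamini-Hochberg adjustment. Deposited CPM are printed for each library, FPKM were used for levels between genes, and TPM only for an alternative with limma 3.58.1. DESeq2 1.42.0 was another alternative.

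The model held arm and time. Further models held the interaction of arm with time, the dose within dCBP, and each compound pair in blocks of dose and time. In simulated counts with a log2 change of 1, these fits recovered 96.4% of 194 genes (arm, 12324 genes), 31.8% of 195 (interaction), 79.9% of 199 (dose) and 91.5% of 200 (IHK-44 pair). The simulated counts held no change besides the one sought. All of them had the spread of the model of arm and time, a common coefficient of variation of 0.143. The interaction model itself had 0.101 and the dose model 0.155, so their recovered shares do not carry over to these data.

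Named genes were the 12 largest falls and 12 largest rises past the threshold whose groups did not overlap and that reached 5 CPM, up to 3 called genes of each list, EP300, CREBBP, CRBN, the core factors, and the 4 with the smallest p in each further comparison. The members and lists were chosen with earlier results of these data known. Of 42 lists all were used, and 3 of their symbols were not in the files. Promoter sequences came from RefSeq. Alternatives were other scalings, filters, tools and control sets, and leaving out each library. Some named genes are not reported here.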

Additional observations from a re-analysis of the deposited data

Results flagged for a closer look

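The response to dCBP differed between 2 h and 6 h for 67 named genes by the test of that difference (edgeR's quasi-likelihood interaction term, adjusted p under 0.05), with 62 lower and 5 higher at 6 h on the log2 scale, where 7.78% and 1.88% of all genes tested were called. Among the largest falls, the change at 6 h minus that at 2 h was -2.31 for MYC, -2.12 for MYCN, -1.80 for SPRY1, -2.23 for CASS4, -1.63 for ZFP36L1, -4.01 for IL1RAPL2, -1.29 for PLK2 and -1.81 for GAS1. Among the muscle regulators and structural genes, the change at 6 h minus that at 2 h was -2.10 for FOXO1, -1.14 for PAX3, -1.74 for MYOD1, -2.32 for MYOG, -2.23 for SOX8, -0.88 for MSC, -2.56 for PITX3, -2.66 for MYMX, -1.95 for CAV3 and -1.38 for MYMK. Among the PAX3-FOXO1 targets, the change at 6 h minus that at 2 h was -3.27 for TFAP2B, -2.94 for FGF8 and -1.65 for POU4F1.

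Among the signalling genes, the change at 6 h minus that at 2 h was -1.45 for SPRY2, -1.24 for PHLDA1, -2.68 for NOG, -2.52 for BMP5, -2.19 for HEYL, -1.14 for HES1, -1.91 for LFNG, -0.89 for WNT5A, -1.88 for LGR5, -1.40 for ANKRD1, -0.75 for AJUBA, -2.91 for IRS1, -1.30 for IGF2BP3, -0.63 for JUN, -1.01 for TNFAIP3 and -1.01 for NFKB1. Among the mesenchymal, SOX, KLF and zinc finger factors, the change at 6 h minus that at 2 h was -2.24 for ZEB2, -3.53 for MEOX1, -1.24 for SNAI2, -1.20 for SOX4, -2.44 for SOX6, -1.20 for KLF4, -0.75 for KLF10 and -1.18 for ZNF608. Among the other named genes it was -1.90 for CCND1, -1.70 for CDK6, -0.66 for CDC25B, -0.55 for POLA1, -1.37 for H2AC4, -1.08 for WDR43, -0.74 for DKC1, -0.58 for NOLC1, -1.83 for BMF, -1.49 for STC2, -1.14 for CITED1, -1.26 for RORA, -1.87 for PDE3A, -1.33 for COL19A1, -0.99 for COL14A1, -3.16 for SEMA6A and -2.76 for MN1. It was higher at 6 h for 5 genes, at 1.66 for MXD1, 1.00 for GCH1, 2.72 for NIPAL3, 1.29 for SLAIN1 and 1.12 for HSPA1B.

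In 7 cases among the 147 named genes 1 library stood apart from the other 3 of its group by Dixon's test. Chance gives this in about 1 of 20 groups, so 7 cases among so many genes may all be chance. Each group held both times, and the dCBP group both doses. KIAA0408 was at 1.74 CPM with 100 nM dCBP at 2 h and lower in the other dCBP libraries, and MRPL20 was at 21.8 CPM with 1 µM dCBP at 6 h. Among the controls, CAV3 stood at 87.6 CPM in DMSO at 6 h and NOG at 30.6 CPM in DMSO at 2 h. In NT at 2 h, JUN stood at 492 CPM, GTF2B at 17.3 CPM and COL19A1 at 87.2 CPM. The causes of these were not tested.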

How the results depend on the processing

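The direction of 147 named genes was kept in 2653 of the recomputed values with the same call, 263 lost the call, 9 gained it, and 1 reversed (MTF1, -0.10 with limma on TPM). Of 141 named genes called, 80 were called in every alternative that gave a value for them (19 or 20). The numbers of calls depended more on the processing, and the cause was not tested. Against DMSO alone 837 genes were lower and 450 higher, against NT alone 931 and 398, without a time term 854 and 858, with limma on TPM 5071 and 259, and at 2-fold or more 602 and 310. The higher calls were 2792 with all 20 libraries in the fit, 3112 with library size alone, 2919 with upper quartile scaling and 3077 with limma on CPM. Leaving out 1 library gave 1075 (without NT at 6 h) to 2145 lower and 701 (without DMSO at 6 h) to 1798 higher. The time dependence gave 594 to 2207 lower and 64 to 1307 higher without 1 library, and 499 higher with library size alone. The dose comparison gave 0 to 0 calls in either direction without 1 library.

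Against IHK-44, DESeq2 called 18 lower and 78 higher, library size gave 8 lower, and without the block of dose and time 0 were lower and 6 higher. Without 1 library there were 1 to 12 lower and 6 to 43 higher. Against A485, DESeq2 called 344 and 266, no block gave 23 and 55, and leaving out 1 library gave 22 to 243 lower and 51 to 342 higher. Against JQAD, DESeq2 called 1990 lower, library size gave 2185 higher, no block gave 247 and 337, and leaving out 1 library gave 368 to 1555 lower and 445 to 1310 higher. Among genes at 10 CPM or more, CpG-rich promoters made up 79.0% of lower, 89.9% of higher, 89.7% of not passed and 87.9% of all genes. At 2-fold or more the shares were 62.0% of lower and 77.5% of higher genes, but that check is void, because 76.9% and 77.4% of these genes, under 80%, had a promoter entry. No paired analysis was possible because the labels carry no replicate numbers that pair dCBP with control libraries. The compounds were matched only by the block of dose and time.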
